A study of Arabidopsis thaliana with 26 samples.

Results

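The genes described here encode proteins of the large (60S) subunit of the cytosolic ribosome in Arabidopsis thaliana. A list of 60 loci, which encode 25 proteins, defined the set, and a locus was measured where a probe set of the array was annotated to it alone. Of the 22810 probe sets in the table, 41 belonged to single members in this way, 1 for each gene, and they covered 20 proteins. All 41 passed the filter on low values.

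The series measured total RNA from leaves of the accession Col-0 on 26 ATH1 arrays, on which each transcript is read by a set of short probes. All plants belonged to the treatment that the series title calls elevated CO2 with ambient light, in a study of systemic signalling of light and CO2. The groups were mature leaves at 24 h of treatment (n = 2 arrays) and developing leaves, insertions 19-21, at 2, 4, 12, 24, 48 and 96 h (n = 4 arrays each). The growth room was kept at 20 °C and 50% humidity, the lights were on for 10 h, and the medium was Humax compost. Untreated plants are not part of any comparison below, which therefore say nothing of CO2 itself, and the labels do not say which leaves were exposed, which insertions the mature leaves were, or how many plants an array holds. Since 24, 48 and 96 h lie whole days apart and 2, 4 and 12 h do not, time of day and duration of treatment change together over the earlier times.

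The 60S subunit joins amino acids into protein, and its proteins are made in near equal numbers because each ribosome carries a single copy of most of them. In Arabidopsis each protein is encoded by a small family of paralogous genes, so that the same position in the ribosome can be filled from several loci. Growing leaf cells need many new ribosomes, and transcripts for ribosomal proteins are among the most abundant in young tissue. Some 60S genes are known in this plant by the developmental phenotypes of their mutants, among them PGY1, a gene for L10a tied to leaf polarity, and STV1, a gene for L24 tied to the shape of the pistil.

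Values are signal intensities as the authors deposited them, globally scaled so that each array had a trimmed mean of 100. Changes are differences in log2(intensity + 16) ± SE from a linear model over all arrays (limma), and a gene is said to have changed where its p, adjusted over all 16154 probe sets tested, was under 0.05. Array medians lay between 39.7 and 47.4, and replicate arrays correlated across probe sets at r = 0.956 to 0.987. A control transcript added to the samples, cre, stood out on replicate 1 of developing leaves at 24 h (6451) and at 48 h (6745), since the other 24 arrays read 1718 to 3709. A probe set for 25S rRNA read 4449 on the first of these arrays, 1571 on the second, and 1536 and 434 on replicates 1 and 3 of developing leaves at 96 h, against 16.8 to 190 on the other 22 arrays. The ratio of 3′ to 5′ actin signal lay between 1.44 and 1.52 in mature leaves and between 1.63 and 2.17 in developing leaves at 24 h.

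The leaf label was checked on the marker genes that had a probe set. RCA, the Rubisco activase, averaged 3905 ± 283 in mature leaves (SD, n = 2) and 4062 ± 1060 in developing leaves at 24 h (SD, n = 4). The root peroxidase gene AT5G17820 averaged 1.84 in mature leaves and 1.56 to 2.81 in the developing groups. PYK10, a root glucosidase gene, averaged 7.53 ± 4.17 in mature leaves (SD, n = 2) and 18.05 ± 3.61 in developing leaves at 24 h (SD, n = 4), with up to 31.0 in the other developing groups, and was lower in mature leaves than in developing leaves at 24 h (-0.54, adjusted p = 0.0445). No flower marker had a probe set of its own. AUR1 and AUR2, kinases of dividing cells, averaged 38.8 and 16.7 in mature leaves, against 159 and 95.5 in developing leaves at 24 h. In bulk tissue, fewer cells of a type and less RNA per cell cannot be told apart.

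The members covered a wide range of signal. Averaged over all arrays, 38 members lay between 125 and 2477, and 3 were dim: AT3G51190 (L8) at 38.2, AT2G47570 (L18) at 26.8 and AT3G48960 (L13) at 23.5. For comparison, the 40th percentile of an array, used in the filter, lay between 24.3 and 32.6. Among the 19 loci without a probe set of their own were both genes of L3, of L5 and of L24, with STV1 among them, and all 3 genes of L10 and of L11. The other 7 were AT1G74050 and AT1G74060 (L6), AT2G18020 and AT4G36130 (L8), AT3G49010 (L13), AT3G05590 (L18) and AT1G02780 (L19). The 2 L6 genes share 1 probe set, which averaged 647 ± 11.3 in mature leaves (SD, n = 2) and 1592 ± 367 in developing leaves at 24 h (SD, n = 4) and was not counted among the members.

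In mature leaves nearly every 60S gene was lower than in developing leaves of the same time. The model called 39 of 41 members lower and 0 higher, against 30.7% of all probe sets lower and 24.1% higher, and the median change was -1.34 for the members and -0.10 for all probe sets tested. The 39 members were those whose groups did not overlap, where 29.4% of all probe sets were called lower with no overlap. Of them, 32 had a log2 change of -1 or below, where 9.09% of all probe sets did and were called lower. All tested genes were lower for 18 of the 20 proteins. The exceptions were 2 dim genes, AT3G48960 (L13; log2 change -0.19, adjusted p = 0.424) and AT2G47570 (L18; -0.29, adjusted p = 0.235). L8 counts among the 18 through 1 dim gene, AT3G51190 (-0.54, adjusted p = 0.0254), whose call was lost under 3 of 14 alternatives.

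The P stalk, which recruits elongation factors to the ribosome, is represented by P0, its base, and by L12, which binds rRNA beside it. The P0 gene AT2G40010 read 15.4 and 20.4 in mature leaves, against 96.6, 130, 101 and 129 in developing leaves at 24 h. Both mature values lay below the 40th percentile of any array, while the developing values were all well above it. The means were 17.9 ± 3.50 (SD, n = 2) and 114 ± 17.7 (SD, n = 4), and the change was -1.93 ± 0.15 (adjusted p = 2.12e-11). Its size on the log2 scale depended on the constant added, since the mature level is low: over all alternatives it lay between -2.43 and -1.12.

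The 3 genes of L12 were all lower in mature leaves but not equally. AT2G37190 read 598 and 552 in mature leaves, against 1920, 2873, 2339 and 2048 in developing leaves, a change of -1.95 ± 0.15 (adjusted p = 9.04e-12). Its paralogues AT5G60670 and AT3G53430 changed by -1.65 and -0.98. The groups of each of these genes stood apart, and AT3G53430 kept 50.1% of its developing level where AT2G37190 kept 25.1%.

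L10a forms the other, L1 stalk, through which spent tRNA leaves the ribosome. AT5G22440 read 240 and 261 in mature leaves, against 1017, 1288, 1101 and 982 in developing leaves, a change of -2.06 ± 0.11 (adjusted p = 1.11e-14). Every mature value was below every developing value by a wide margin. AT1G08360 changed by -1.38 and PGY1 (AT2G27530) by -1.27, both past the threshold. PGY1 averaged 731 ± 8.12 in mature leaves (SD, n = 2) and 1792 ± 104 in developing leaves (SD, n = 4).

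L29, a small basic protein with a single gene on the list, had the largest change of the 41 members on the log2(intensity + 16) scale, while by the ratio of means the dimmer P0 gene was lower by more (6.38-fold, against 5.07-fold for L29). AT3G06680 read 174 and 160 in mature leaves, against 884, 803, 809 and 887 in developing leaves. The mature level was 19.7% of the developing level, with no overlap, and the change was -2.24 ± 0.16 (adjusted p = 4.73e-12). The L14 gene AT2G20450 read 143 and 148 in mature leaves, against 484, 569, 698 and 619 in developing leaves, a change of -1.90 ± 0.12 (adjusted p = 2.99e-13).

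L4 and L17 line the tunnel through which the new protein leaves. The L4 genes AT3G09630 and AT5G02870 changed by -0.98 and -1.04 and kept 50.4% and 48.3% of their developing level. The L17 genes AT1G27400 and AT1G67430 changed by -1.81 and -1.44. The smallest changes among the brighter members were those of the L19 gene AT4G02230 (-0.87), the L22 gene AT5G27770 (-0.92), the L7a gene AT3G62870 (-0.92) and the L14 gene AT4G27090 (-0.93), all past the threshold.

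These changes were not limited to the 60S subunit. Of 43 tested genes of the small (40S) subunit, 41 were lower in mature leaves and 0 higher, with a median change of -1.35. Of 39 tested genes for other 60S and acidic P proteins, 38 were lower (median -1.40). All 10 tested ribosome biogenesis factors, of 30 listed, were lower (median -1.23), or 9 of them after quantile normalization, among them AT3G05060, a NOP58-like protein of the particles that methylate rRNA, at 114 ± 6.69 in mature leaves (SD, n = 2) and 413 ± 53.3 in developing leaves (SD, n = 4). Both tested translation factors, of 23 listed, were lower, EIF4A-2, an RNA helicase of initiation, by -0.80 and AT4G20980 by -0.69. RAPTOR1, a partner of the growth kinase TOR, had a log2 change of 0.20 (adjusted p = 0.247).

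Other markers moved with leaf age too. SWEET11, a sugar exporter of the phloem, averaged 626 ± 21.3 in mature leaves (SD, n = 2) and 109 ± 22 in developing leaves at 24 h (SD, n = 4). The senescence-related WRKY53 averaged 113 ± 24.6 in mature leaves and 23.0 ± 6.23 in developing leaves. The part of these markers and of the actin ratio in the 60S result was not tested. The mature group rests on 2 arrays, and leaving out any 1 array of the comparison gave 38 to 39 called members.

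**Figure D1:**
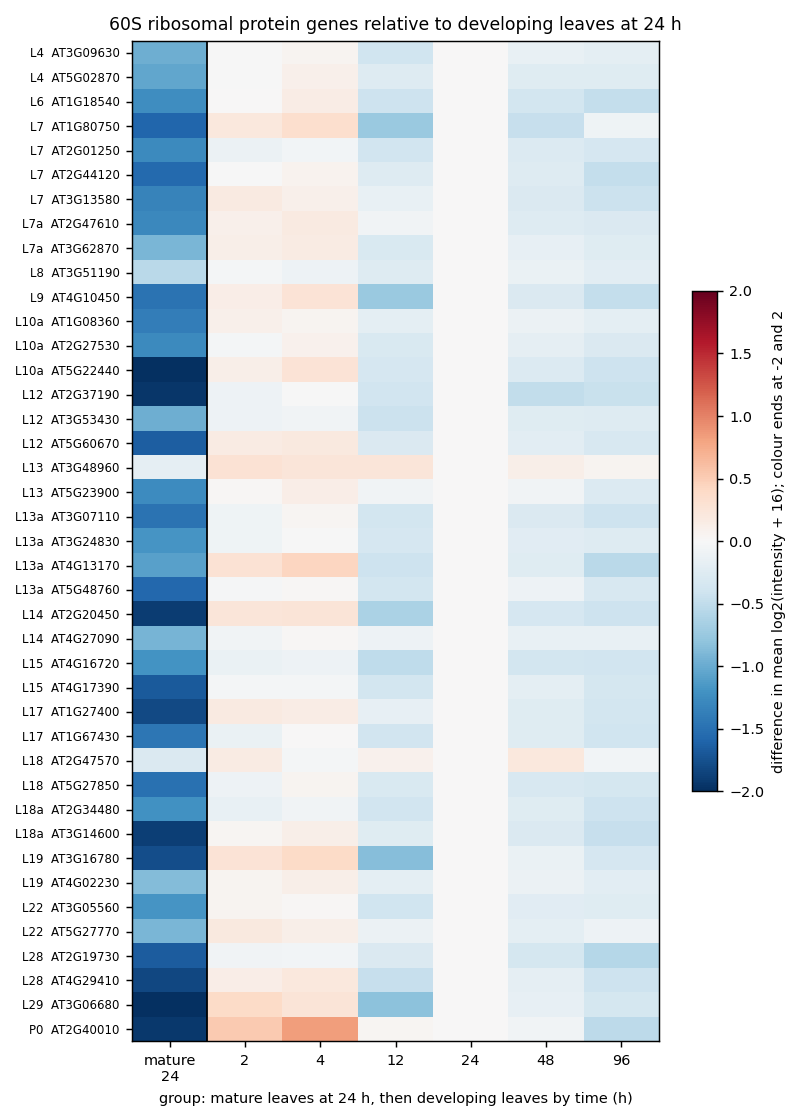
Heat map of the 41 measured 60S genes, a row each, with the mature group at the left and developing leaves by time (h) to its right. Colour is the difference of the group mean of log2(intensity + 16) from developing leaves at 24 h, blue for lower: the mature column is blue for nearly all genes (median -1.34), and the 12 h and 96 h columns are lighter blue (medians -0.33 and -0.34).

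Within developing leaves, 37 of 41 members varied over the 6 times by the model's F test, against 50.0% of all probe sets. The 4 that did not pass were the 3 dim genes and the L14 gene AT4G27090. The highest mean of a member fell at 4 h for 24 members, at 24 h for 9, at 2 h for 7 and at 48 h for 1. The lowest fell at 96 h for 20 members, at 12 h for 18, at 48 h for 2 and at 24 h for 1. Of all probe sets that passed the F test, 21.8% had their highest mean at 4 h and 5.81% at 24 h. For members that passed, the shares were 62.2% and 21.6%. The lowest mean fell at 96 h for 30.0% of all such probe sets and at 12 h for 23.9%, against 48.6% and 45.9% of such members. These were the commonest times of the lowest mean in both. Between 2 and 4 h, 0 members passed the adjusted threshold in limma, against 0.681% of all probe sets lower and 1.36% higher, and 1 had an unadjusted p under 0.05.

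At 12 h many 60S transcripts were lower than at 2 h. The model called 25 of 41 members lower and 0 higher, against 13.5% of all probe sets lower and 15.1% higher. The median change was -0.31 for the members and 0.03 for all probe sets, and 17 of the 20 proteins had at least 1 gene that fell. The 5 largest falls were those of genes for L29, L19, L7, L9 and L14.

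The L29 gene AT3G06680 read 605, 424, 394 and 490 at 12 h, against 1084, 1291, 940 and 1137 at 2 h. Each value at 12 h was below each value at 2 h, and the mean at 12 h was 43.0% of that at 2 h (log2 change -1.20 ± 0.13, adjusted p = 4.85e-08). At 24 h it read 884, 803, 809 and 887, again above all values at 12 h (24 h over 12 h, 0.82 ± 0.13, adjusted p = 2.07e-05).

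The L19 gene AT3G16780 read 334, 302, 317 and 289 at 12 h, against 652, 817, 624 and 726 at 2 h. L19 reaches from the 60S towards the 40S subunit and forms a bridge between them. The fall was 1.14 on the log2 scale (SE 0.12, adjusted p = 3.03e-08), with tight replicates at 12 h and no overlap. At 24 h the values were 725, 404, 571 and 652, wider but all above those at 12 h (24 h over 12 h, 0.86 ± 0.12, adjusted p = 3.06e-06).

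L7 is an rRNA-binding protein with 4 genes on the list. Its gene AT1G80750 read 246, 193, 242 and 227 at 12 h, against 399, 486, 552 and 381 at 2 h, a change of -0.94 ± 0.18 (adjusted p = 0.000173). At 24 h the same gene read 231, 541, 363 and 493, so that 1 array, replicate 1, overlapped the 12 h values. The other L7 genes changed less between 12 h and 2 h: AT3G13580 by -0.33, AT2G44120 by -0.26 and AT2G01250 by -0.26, the last not past the threshold (adjusted p = 0.0546). The call of AT2G44120 (adjusted p = 0.0402) was lost under 9 of 15 alternatives.

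The L9 gene AT4G10450 read 448, 535, 711 and 552 at 12 h, against 963, 1046, 1185 and 956 at 2 h (change -0.88 ± 0.12, adjusted p = 1.71e-06). The L14 gene AT2G20450 read 397, 346, 396 and 364 at 12 h, against 633, 743, 711 and 701 at 2 h (change -0.86 ± 0.10, adjusted p = 7.94e-08). In neither gene did the groups overlap. AT4G13170, a gene for L13a, changed by -0.71 ± 0.11 (adjusted p = 1.04e-05).

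With the deposited scaling, the direction turned from 12 h to 24 h. The model called 27 members higher at 24 h than at 12 h and 0 lower, against 13.0% of all probe sets higher and 16.2% lower, and the median change was 0.33 for the members and -0.04 for all probe sets. Between 24 h and 2 h, 1 member passed, against 4.88% of all probe sets lower and 4.33% higher. It was the P0 gene AT2G40010, which read 96.6, 130, 101 and 129 at 24 h, against 127, 189, 199 and 173 at 2 h (change -0.52 ± 0.12, adjusted p = 0.00577). Quantile normalization called 4 members lower in that comparison and 0 higher. The comparisons among 2, 12 and 24 h share arrays, so their calls are given side by side and not counted against each other.

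**Figure D2:**
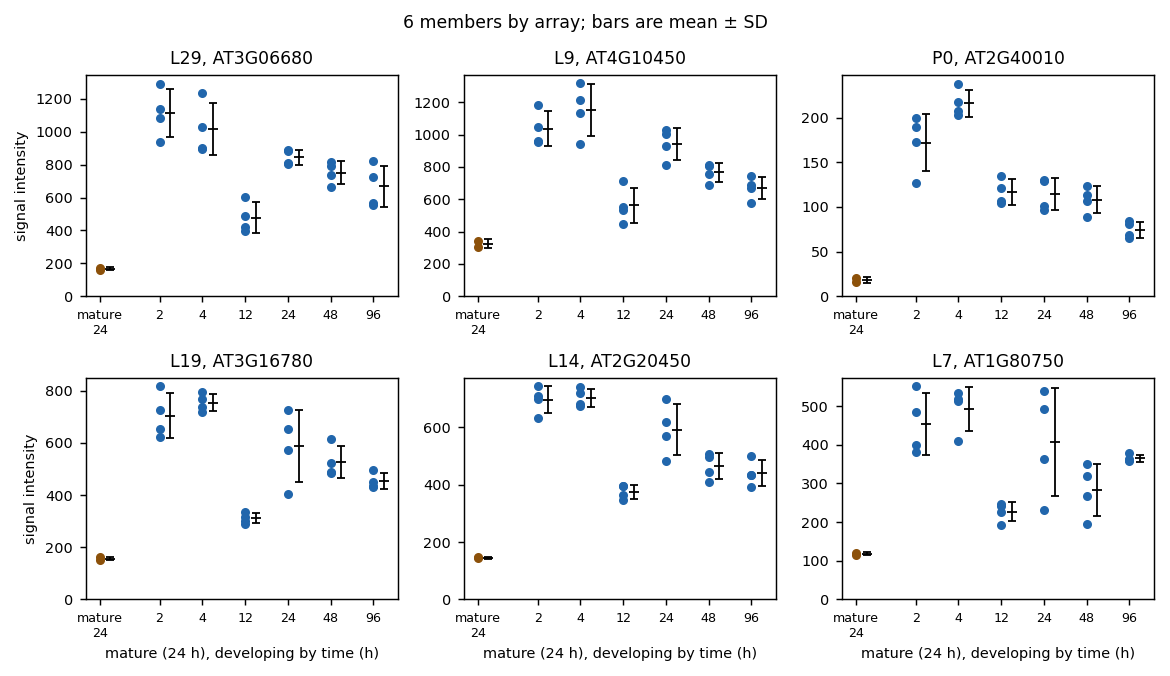
Signal intensity of 6 members on every array (points), with mean and SD beside them; mature leaves are at the left, developing leaves follow by time (h). The 12 h points of the L29, L9, L19 and L14 genes lie below all their 2 h points, and the mature points lie below all developing points in all 6 panels.

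The 12 h result depended on how the arrays were scaled, and the dependence followed signal level. The 98th percentile of the array was lowest at 12 h, at 1063 ± 28.9, against 1153 ± 38.7 at 2 h and 1213 ± 75.5 at 24 h (SD, n = 4 each). Quantile normalization, which gives every array the same distribution, left 15 members lower at 12 h than at 2 h, all of them among the 25, with a median change of -0.17. For 24 h over 12 h it left 8 members higher and 3 lower, with a median of 0.01 instead of 0.33. No share of all probe sets called after quantile normalization is given in this report, so member counts under it are a description only. The median of all probe sets moved by less than 0.1 on the log2 scale.

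The genes with the largest falls at 12 h changed little under that normalization. The change of 12 h over 2 h became -1.16 for L29 (AT3G06680), -1.16 for L19 (AT3G16780), -0.98 for L7 (AT1G80750), -0.86 for L9 (AT4G10450) and -0.89 for L14 (AT2G20450), all past the threshold. The bright members moved most. AT4G27090, the other L14 gene, had a change of -0.04 as deposited and 0.24 after quantile normalization. Over the 38 members that were not dim, the mean level and the 12 h over 2 h change correlated across genes at r = 0.576 (Spearman rho 0.600), brighter genes having smaller falls, and over all 41 members at r = 0.0706 (rho 0.300). These genes share the arrays and are not independent replicates.

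**Figure D3:**
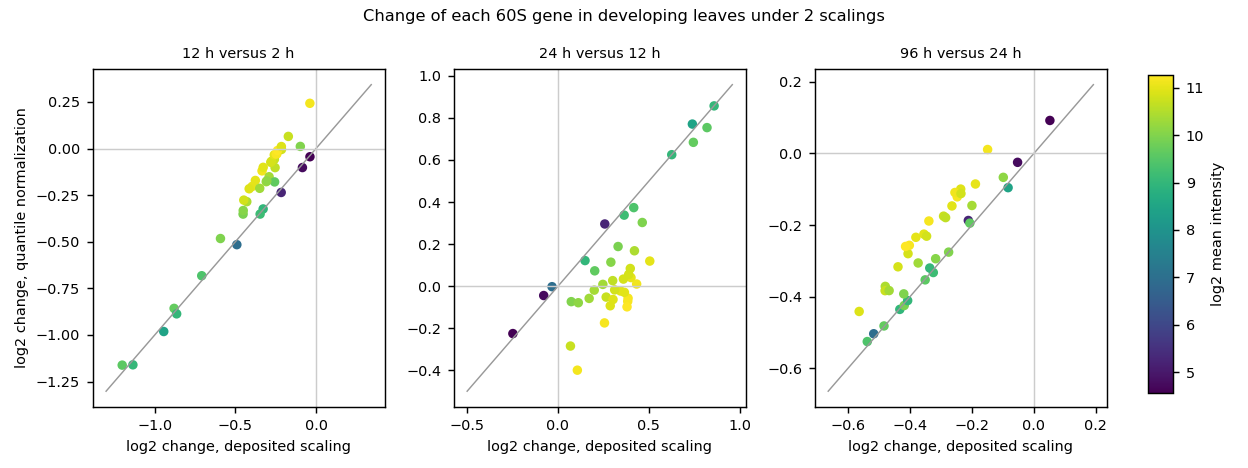
Change of each member on the log2 scale after quantile normalization (vertical) against the change with the deposited scaling (horizontal) for 3 comparisons of developing leaves, with points coloured by log2 mean intensity and the line of equality in grey. The bright (yellow) members lie off the line in all 3 panels, most at 24 h over 12 h, where 9 members called higher take a negative value, while the members with falls of over 0.8 at 12 h lie near it.

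Beside the 60S genes, 27 of 43 tested 40S genes were lower at 12 h than at 2 h and 0 higher (median -0.36), and 21 of 39 other 60S and acidic P genes were lower (median -0.34). The 10 tested ribosome biogenesis factors were all lower at 12 h, with a median of -1.11 and a range of -1.40 to -0.97, and all 10 were higher at 24 h than at 12 h (median 0.84). NRPA1, the largest subunit of the RNA polymerase that makes rRNA, averaged 51.6 ± 11.2 at 12 h and 143 ± 21.1 at 2 h (SD, n = 4 each; change -1.24 ± 0.17, adjusted p = 2.08e-06). AT3G23620, a factor of rRNA processing, averaged 181 ± 20.0 at 12 h and 503 ± 31.6 at 2 h (change -1.40 ± 0.11). After quantile normalization all 10 factors were again lower at 12 h than at 2 h (median -1.14) and higher at 24 h than at 12 h (median 0.88). The 40S genes shifted with the 60S genes: 21 were lower at 12 h than at 2 h and 1 higher, and at 24 h over 12 h 14 were higher and 3 lower, against 28 higher and 1 lower with the deposited scaling.

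The 2 tested markers of dividing cells, of 10 listed, did not move with the 60S genes at 12 h. The part of dividing cells in the 60S result at 12 h was not tested. AUR1 averaged 201 ± 26.7 at 12 h and 143 ± 15.8 at 2 h, and AUR2 averaged 116 ± 16.1 at 12 h and 74.6 ± 4.19 at 2 h (SD, n = 4 each), both past the threshold and higher at 12 h under both scalings. The translation factor genes EIF4A-2 and AT4G20980 changed by -0.76 and -0.64 at 12 h over 2 h.

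By 96 h many 60S transcripts were again lower than at 24 h. The model called 23 of 41 members lower at 96 h than at 24 h and 0 higher, against 7.23% of all probe sets lower and 7.74% higher, and the median change was -0.34, with a range of -0.56 to 0.05. Genes of 15 of the 20 proteins fell, and quantile normalization left 21 of the 23 calls. At 48 h, 0 members passed the threshold against 24 h in limma, as did 0% of all probe sets. Of the 41 changes, 39 were negative (median -0.24, against 0.02 for all probe sets), and 21 had an unadjusted p under 0.05. The shares of all probe sets beside these counts are not given, so the counts are a description only. The smallest adjusted p at 48 h was 0.145, for the L12 gene AT2G37190. Weighting arrays by their quality in the same model called 17 members lower at 48 h and 0 higher, against 1.58% of all probe sets lower.

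The largest fall at 96 h on the log2(intensity + 16) scale was in L28, whose gene AT2G19730 read 1493, 1723, 1689 and 1429 at 96 h, against 2441, 2583, 2143 and 2225 at 24 h. All values at 96 h lay below those at 24 h (change -0.56 ± 0.12, adjusted p = 0.00156). By the means it kept 67.4% of its 24 h level, where the dimmer P0 gene AT2G40010 kept 65.4%. The L13a gene AT4G13170 read 491, 498, 479 and 485 at 96 h, close together, against 784, 810, 645 and 642 at 24 h (change -0.54 ± 0.11, adjusted p = 0.00119).

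The P0 gene AT2G40010 read 68.9, 84.0, 80.3 and 65.1 at 96 h, against 96.6, 130, 101 and 129 at 24 h (change -0.52 ± 0.12, adjusted p = 0.00489). Among developing leaves the mean of this gene was highest at 4 h, at 216 ± 15, and lowest at 96 h, at 74.6 ± 9.02 (SD, n = 4 each). Another P0 gene, AT3G09200, which is not on the list, was brighter and had its highest mean at 24 h, at 3807 ± 310, and its lowest at 96 h, at 2897 ± 314. The L9 gene AT4G10450 read 578, 745, 687 and 668 at 96 h, against 812, 1028, 928 and 1004 at 24 h (change -0.48 ± 0.12, adjusted p = 0.00645). The L7 gene AT2G44120 read 1347, 1536, 1510 and 1215 at 96 h, against 2034, 1889, 1979 and 1917 at 24 h (change -0.48 ± 0.09, adjusted p = 0.000915). In these 3 genes the groups did not overlap.

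Of the genes that fell most at 12 h, those of L29, L19 and L7 did not pass at 96 h. Their changes were -0.35 for L29 (adjusted p = 0.0716), -0.34 for L19 (AT3G16780, adjusted p = 0.0602) and -0.083 for L7 (AT1G80750, adjusted p = 0.809). Whether the 2 falls differ in which genes they affect was not tested. Among the lists, 21 of 43 genes of the 40S subunit and 6 of 10 biogenesis factors were lower at 96 h, and AUR1 and AUR2 were also lower, at 110 ± 17.4 and 38.5 ± 5.48 at 96 h, against 159 ± 34.5 and 95.5 ± 6.37 at 24 h (SD, n = 4 each). The part of dividing cells in the 60S result at 96 h was not tested. Leaving out any 1 array gave 16 to 24 called members, and leaving out the array at 96 h or the array at 24 h with the highest 25S rRNA signal gave 18 and 19.

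**Figure D4:**
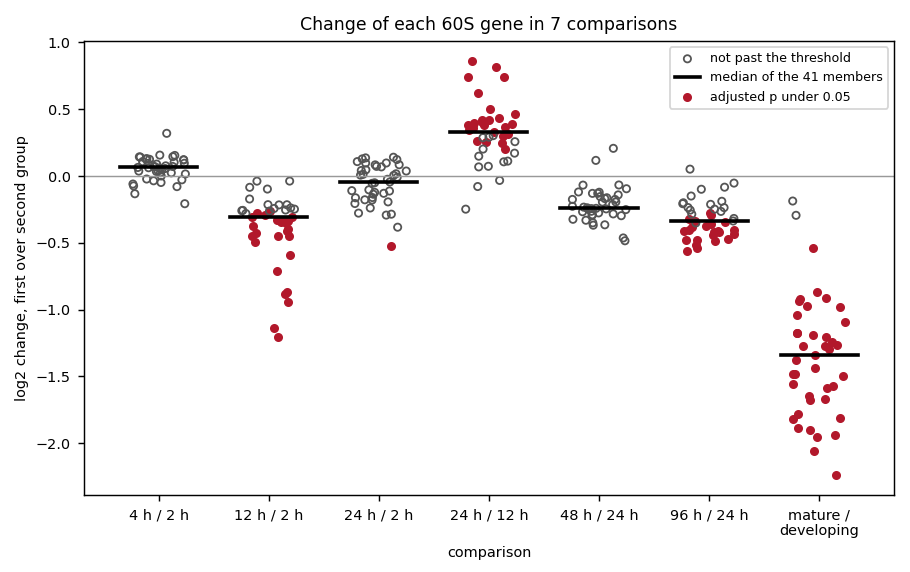
Log2 change of each member (points) in 7 comparisons, the first-named group over the second, with the median of the 41 members as a bar; filled points had an adjusted p under 0.05. The points lie near 0 at 4 h over 2 h, below it at 12 h over 2 h with a tail to -1.20, above it at 24 h over 12 h, and lowest in mature over developing leaves, where they reach -2.24.

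Paralogues of the same protein were compared within each array, where anything that scales both genes alike cancels. A shift that depends on signal level does not cancel between genes of unlike brightness, such as those of L14, with means of 515 and 2268. Its part in the pairs below was not tested. For each of 29 pairs, from the 15 proteins with at least 2 tested genes, the difference in log2(intensity + 16) was tested over the 6 times in the 24 arrays of developing leaves by a permutation test with 100000 resamples. The p-values were adjusted over the 29 pairs, and 8 pairs from 7 proteins passed, with 13 under 0.05 before adjustment. Quantile normalization gave 17 such pairs, and leaving out both arrays with a high spike-in gave 14. A difference between probe sets is not a ratio of transcripts, so only its change between groups is read here. The tests of pairs that share a gene are not independent.

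The difference between the L19 genes AT3G16780 and AT4G02230 varied most clearly. It was -1.20, -1.05, -1.28 and -1.33 at 12 h, against -0.40, -0.25, -0.50 and -0.19 at 2 h. No other developing array was as low as the 12 h arrays, since the lowest of the other times was -0.82. The permutation p was 1e-05, the smallest that these resamples can give, and 0.00029 after adjustment. AT3G16780 changed by -1.14 at 12 h over 2 h where AT4G02230, at 789, 642, 791 and 751 at 12 h, against 864, 975, 886 and 833 at 2 h, changed by -0.26 (adjusted p = 0.0524).

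The L14 pair followed the same course. The difference of AT2G20450 minus AT4G27090 averaged -2.55 ± 0.13 at 12 h and -1.72 ± 0.17 at 2 h (SD, n = 4 each), with an adjusted permutation p of 0.0117. AT4G27090 read 2188, 2178, 2291 and 2459 at 12 h, against 2526, 2356, 2367 and 2120 at 2 h, values that overlap, while AT2G20450 fell. At 24 h this difference was spread, from -2.71 on replicate 1, the array with a high spike-in, to -1.55 on replicate 2.

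In L13a, 2 of the 3 pairs that hold AT4G13170 passed. The difference of AT3G24830 minus AT4G13170 was 1.93, 1.96, 2.01 and 1.89 at 96 h, against 1.30, 1.27, 1.18 and 1.20 at 4 h, and the groups at 2 and 4 h lay below all later arrays (adjusted permutation p = 0.00029). The difference of AT3G07110 minus AT4G13170 averaged 1.70 ± 0.08 at 96 h and 1.19 ± 0.09 at 4 h (SD, n = 4 each; adjusted permutation p = 0.00329). The pair of AT4G13170 and AT5G48760 did not pass (adjusted permutation p = 0.0566). The differences of AT5G48760 with the other 2 genes, AT3G07110 and AT3G24830, had adjusted p-values of 0.750 and 0.839.

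The other 4 pairs that passed had narrower ranges of the group means or a dim member. For L10a, AT1G08360 minus AT5G22440 averaged 0.61 ± 0.10 at 96 h and 0.17 ± 0.04 at 4 h (adjusted permutation p = 0.0140). For L28, AT2G19730 minus AT4G29410 averaged 1.20 ± 0.23 at 12 h and 0.76 ± 0.10 at 4 h (adjusted permutation p = 0.0264), and this call was lost without developing 12 h replicate 2 or 3 or developing 4 h replicate 4. For L7, AT2G01250 minus AT2G44120 had a range of means of 0.27 (adjusted permutation p = 0.0125), with an adjusted p of 0.0589 after quantile normalization. The L18 pair, AT2G47570 and AT5G27850, passed with an adjusted permutation p of 0.00355, but AT2G47570 is dim, so its log2 values rest on low signal.

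The remaining 21 pairs did not pass, which does not show that those paralogues changed alike. Between single times, 4 arrays against 4 cannot go below p = 0.0286 in an exact permutation test. At 12 h against 2 h, 9 of the 29 pairs reached that value, two-sided, and after adjustment the smallest was 0.0921.

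**Figure D5:**
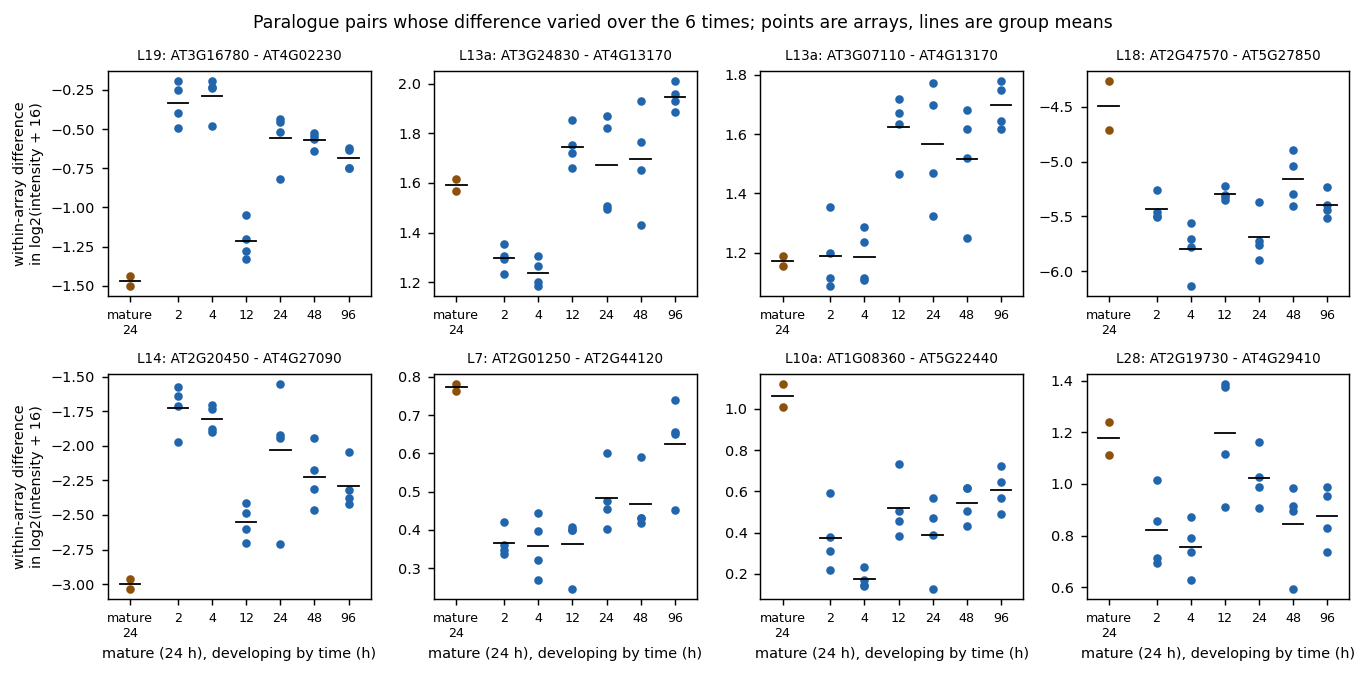
Within-array difference in log2(intensity + 16) between the genes of the 8 pairs that passed the permutation test; points are arrays and lines are group means, with mature leaves at the left and developing leaves by time (h). The group means of the L19 and L14 differences are lowest among developing leaves at 12 h, though replicate 1 at 24 h is as low for L14 (-2.71). The 2 L13a differences are low at 2 and 4 h, and both mature points lie outside all developing points for L19, L18, L14, L7 and L10a.

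The difference between paralogues was also read in mature leaves. In 12 of the 29 pairs both mature arrays lay outside the range of all 24 developing arrays, 8 above and 4 below. Of these, 2 pairs hold a dim gene, AT2G47570 of L18 or AT3G48960 of L13, whose log2(intensity + 16) value has little room to fall. Without pairs that hold a dim gene, 10 of 27 lay outside, 6 above and 4 below. Over the 38 members that were not dim, mean level and the mature change correlated at r = 0.425 (Spearman rho 0.445), dimmer genes falling more. Over all 41 members the values were r = -0.342 and rho 0.151. The part of signal level in the shifts between paralogues was not tested, and no share for pairs of other genes is given. For L14 the mature differences were -2.96 and -3.04, against a range of -2.71 to -1.55 in developing leaves. For L10a, the difference of PGY1 (AT2G27530) minus AT5G22440 was 1.53 and 1.44 in mature leaves, against 0.34 to 1.01 in developing leaves.

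For L12, AT2G37190 minus AT3G53430 was -1.05 and -1.26 in mature leaves, against -0.71 to 0.15 in developing leaves. For L15, AT4G16720 minus AT4G17390 was 0.53 and 0.63 in mature leaves, against -0.14 to 0.24 in developing leaves. With 2 mature and 4 developing arrays at 24 h an exact permutation test cannot go below p = 0.133, so these are given as values. The change of 12 h over 2 h and that of mature over developing leaves at 24 h share no arrays. Across the 41 members they correlated at r = 0.528 (Spearman rho 0.478), and over the 38 that were not dim at r = 0.46 (rho 0.364). These are descriptions across genes that were read on the same arrays under the same normalization.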

How the data were processed

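The authors deposited linear signal intensities of 26 arrays; the submitters' processing notes name MAS5, with no version. The trimmed mean of each column, without the top and bottom 2%, was 100, so a global scaling is in the values. No detection call was used here, and every column was used. Groups came from the labels, which number replicates without saying that they are separate plants, so the spread behind each p-value is that between these samples and may be technical.

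Probe sets were named through a platform annotation and a table of genes, of which 13513 had 1 gene and 503 several. No coordinates or sequences are given, since the sources used here name no build. Values were taken as log2(value + 16), which understates changes of dim probe sets. Tests were run on the 16154 probe sets that lay above the 40th percentile of the array on at least 2 arrays. A model of 7 group means was fitted with limma 3.58.1 (R 4.3.3; lmFit, eBayes with trend), with Benjamini-Hochberg adjustment over all tested probe sets and a threshold of 0.05. Paralogue tests used Python 3.11.15 with NumPy 2.4.6 and SciPy 1.17.1. Both tests were also run on simulated data, with outcomes not given here. The simulated pairs shared no genes and carried no effect of signal level, unlike the measured pairs. Precision is limited by the few arrays: for the members, 95% intervals of a log2 change had a median half-width of 0.21 where both groups had 4 arrays and of 0.26 where mature leaves entered.

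The members and lists were chosen with earlier results of these data known. Lists of 40S genes and of other 60S genes, planned by gene description, were drawn from known loci because the gene table holds no descriptions; a planned list of plastid 50S genes was not used. Array values of the groups compared are given for the 5 called members with the largest fall at 12 h over 2 h, at 96 h over 24 h and in mature leaves, and for members alone in their protein. They were also planned for the leading paralogue pairs. For some genes of these pairs only the within-array difference, a summary of it or its test is given. Up to 5 called genes per other list could be named. Other members, named with their change, are open to naming by the rule. Marker genes were used as a check only. Alternatives were the constant added (4 or 64), no filter, quantile normalization, a replicate block, array weights, only the groups compared, leaving out each array, leaving out both arrays with a high spike-in, and the range of group means as the statistic for pairs. Quantile normalization of the lists beside the members was added after seeing the data.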

Additional observations from a re-analysis of the deposited data

Results flagged for a closer look

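Among the 18 members chosen by these rules, 108 groups of 4 arrays were checked for a value far from the other 3, and 5 groups held one. By chance about 1 in 20 groups would be flagged. The L7 gene AT1G80750 read 409 on developing 4 h replicate 1, against 513 to 533 on the other arrays of that time. The L28 gene AT2G19730 read 2075 on developing 4 h replicate 4, against 2325 to 2346. The L7 gene AT2G44120 read 1488 on developing 12 h replicate 1, against 1670 to 1672. On developing 48 h replicate 1, an array with a high spike-in, the L14 gene AT4G27090 read 2877, against 1952 to 2099, and the L18 gene AT5G27850 read 2014, against 1569 to 1633.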

How the results depend on the processing

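The call of 39 members lower in mature leaves, of 23 lower at 96 h over 24 h, of 37 varying over the 6 times and of 0 at 4 h over 2 h stayed within 1.5 times under every alternative run. Quantile normalization moved 4 counts: 15 members at 12 h over 2 h in place of 25, 11 at 24 h over 12 h in place of 27, 4 at 24 h over 2 h in place of 1, and 17 paralogue pairs in place of 8. The cause was not tested. At 24 h over 12 h quantile normalization reversed 9 of the 27 members called higher: AT5G02870 (-0.17), AT2G34480 (-0.10), AT1G67430 (-0.072), AT2G01250 (-0.057), AT2G44120 (-0.052), AT4G17390 (-0.029), AT3G24830 (-0.023), AT1G08360 (-0.019) and AT5G27850 (-0.017). Members that were not called turned as well, some by more. Among them, AT4G27090 went from 0.11 to -0.40, AT2G47610 from 0.069 to -0.28 and AT2G19730 from 0.29 to -0.093. Array weights gave 3 members at 24 h over 2 h and 17 at 48 h over 24 h, and leaving out both arrays with a high spike-in gave 3 and 1 in these comparisons and 14 paralogue pairs. Leaving out 1 array at a time gave 20 to 26 members at 12 h over 2 h, 21 to 28 at 24 h over 12 h, 1 to 2 at 24 h over 2 h, 0 at 4 h over 2 h, 16 to 24 at 96 h over 24 h, 38 to 39 in mature leaves, 35 to 37 in the F test and 7 to 12 pairs. At 48 h over 24 h the range was 0 to 3, the 3 when replicate 1 of developing leaves at 24 h was left out and 1 when that at 48 h was.

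With the replicate number as a block, 2 members passed at 24 h over 2 h in place of 1, and 9 pairs passed in place of 8. The numbers were not treated as pairing the samples, since the labels tie them to nothing shared and 23 of 60 correlations of deviations between arrays of the same number, not all, were over 0.1. As a hint from the data, 14 of 24 arrays were closest to an array of their own number, and the median correlation was 0.0708 for the same number and -0.00657 for other numbers. Of 1737 values of called members under alternatives, 1606 kept direction and side of the threshold, 122 kept the direction only and 9 turned. The 2 mature arrays, 3 dim members and 19 unmeasured loci limit what can be said.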
